A study of Mus musculus with 4 samples.

Results

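The 39 genes described here form the amino acid arm of the response to the transcription factor ATF4, together with the cytosolic aminoacyl-tRNA synthetases that belong to it. They were picked by symbol from a table of 25509 genes, and all 39 were found. RNA was sequenced from 4 libraries of mouse T cells, 2 labelled WT and 2 labelled Batf3-/-. Both genotypes started from naive splenic CD4+ cells that were sorted as CD25-, CD62L high and CD44 low. All cultures then received the same TH9-polarizing mixture for 72 h: anti-CD3 and anti-CD28 antibodies, TGFb, IL-4 and the TNF family cytokine TL1A (written TLA1 in the treatment tag). TH9 cells are helper T cells that secrete IL-9, and the series asks how the AP-1 family factor BATF3 bears on their differentiation. The labels give no age, strain or description of the Batf3 allele, and they do not say whether the replicates came from separate mice. With 2 libraries per genotype, the edgeR p-values of most genes rest mainly on a spread shared across genes, less on a gene's own libraries.

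ATF4 is a basic leucine zipper factor whose mRNA is translated more efficiently when the initiation factor eIF2alpha is phosphorylated, for example by GCN2 when uncharged tRNA accumulates or by PERK under endoplasmic reticulum stress. In activated lymphocytes mTORC1 also raises ATF4. Together with partners of the C/EBP family, ATF4 binds composite elements in the promoters of genes for amino acid synthesis, amino acid import, folate-dependent one-carbon metabolism and tRNA charging. These supply a T cell that is growing and dividing after stimulation. Because ATF4 is controlled largely at translation, its mRNA level is not a measure of its protein.

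Batf3 stood at 61.7 and 60.5 CPM (counts scaled to a common library size and composition) in WT and at 0.535 and 0.517 CPM in Batf3-/-, which matched the genotype labels. The total count per library ran from 15624874 to 31098059. All 4 libraries held the T cell markers, with a summed level of 2229 to 2406 CPM over 7 genes. The myeloid markers Lyz2 and Mpo were at 0 in all libraries, as were the B cell marker Ms4a1 and the NK cell markers Ncr1, Klrb1c and Klra8. Summed levels were 0.262 to 0.645 CPM over 6 myeloid genes, 0.0647 to 0.437 CPM over 4 NK cell genes, 6.66 to 9.43 CPM over 5 dendritic cell genes, 9.88 to 13.2 CPM over 5 B cell genes, most of it Cd79b, and 7.31 to 9.09 CPM over the CD8 T cell pair, nearly all of it Cd8b1. The WT replicate 1 library stood somewhat apart from the others, with correlations of log2 CPM across genes of 0.971 to 0.976, where the other pairs of libraries gave 0.981 to 0.982. Xist was at 0.214 CPM in WT replicate 1 and 0.0944 CPM in Batf3-/- replicate 1, but at 166 and 144 CPM in the libraries numbered 2, so the 2 replicates of each genotype differed in sex-linked expression and were not repeat libraries of the same cells.

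The promoters of 12 of these genes held the core letters of the element through which ATF4 and its C/EBP partners act. That core, TGATGNAA, was searched on both strands in RefSeq promoters of build GRCm38.p6, from 250 bases before to 50 bases after the annotated start. Promoters were found for 34 of the 39 genes (Slc7a5, Slc7a3, Slc1a5, Wars and Nars had none). A match was present in 12 of the 34 (35.3%), compared with 4.51% of all 27025 genes in the promoter table. The 12 comprise Atf3, Nupr1, Trib3, Chac1, Vldlr, Asns, Pycr1, Slc7a11, Slc1a4, Aars, Gars and Iars. A match is a run of letters and not evidence of binding. The 6 windows of 30 bases given next belong to genes whose values follow library by library. They are shown because they place the same core in a transcription regulator, a feedback pseudokinase, biosynthetic enzymes and synthetases. The match is in capitals on the strand of the gene, 5′ to 3′, where a match on the opposite strand reads TTNCATCA.
Asns (chr6:7693214-7693243, minus strand): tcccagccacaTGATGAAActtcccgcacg
Pycr1 (chr11:120643833-120643862, minus strand): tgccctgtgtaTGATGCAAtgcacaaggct
Nupr1 (chr7:126625562-126625591, minus strand): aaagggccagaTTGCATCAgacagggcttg
Trib3 (chr2:152344028-152344057, minus strand): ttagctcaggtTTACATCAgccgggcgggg
Gars (chr6:55037960-55037989, plus strand): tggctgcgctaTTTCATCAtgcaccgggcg
Iars (chr13:49682126-49682155, plus strand): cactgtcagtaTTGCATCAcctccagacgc
The first base of the match lay at position -23 in Asns and -30 in Gars, close to the start, at -103 in Pycr1 and -110 in Nupr1, and just inside the transcript at 8 in Iars and 15 in Trib3, where 1 is the annotated start and -1 the base before it. Atf4, Atf5 and Cebpb, 3 of the regulators described next, had no match in this window. The AP-1 site TGANTCA, the kind of sequence that BATF family dimers with JUN proteins recognise and that reads the same on both strands, was present in 2 of the 34 (5.88%), Ddit3 and Slc7a1, compared with 8.97% of all genes in the table. No gene of the 34 had a match to both motifs, so none overlapped.

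**Figure D1:**
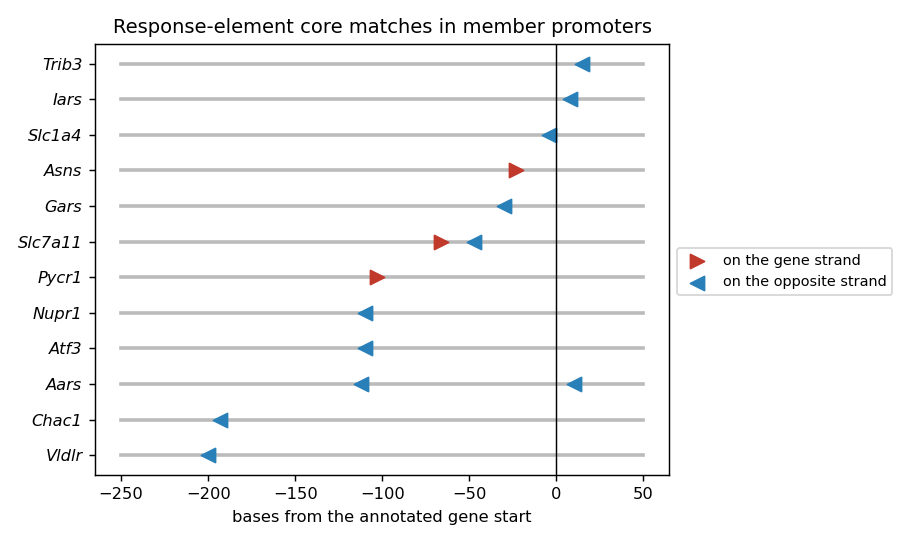
Position of each match to the response-element core in the 12 promoters that hold one. The horizontal axis is the distance in bases from the annotated gene start, grey lines are the window searched, and triangles point along the strand of the match. Matches lie on both sides of the start, most of them upstream, and Aars and Slc7a11 hold a pair each.

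All 39 genes passed the filter on low counts and were tested among 12135 genes with edgeR's quasi-likelihood test. None of the 39 genes passed the test at an adjusted p of 0.05, where 0.0824% of all tested genes passed as higher in Batf3-/- and 0.0494% as lower. DESeq2 and limma-voom also called 0 of the 39. At an unadjusted p under 0.05, 4 genes (10.3%) were higher in Batf3-/-: Atf5, Cebpb, Nupr1 and Slc1a5. The background was 3.4% of tested genes. None was lower, against a background of 1.4%. Both Batf3-/- libraries lay above both WT libraries in 7 genes (17.9%), compared with 18.2% of all tested genes, and below them in 1 gene (2.56%), compared with 15.6%. The 7 were Atf3, Atf4, Atf5, Cebpb, Nupr1, Slc1a5 and Sars, and the 1 was Slc38a2. In bulk RNA, fewer cells that express a gene and less RNA per cell cannot be told apart.

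The median log2 fold change of the 39 genes was 0.05, compared with -0.01 over all tested genes. The fitted value was above 0 in 28 genes and below 0 in 11. That split was not stable: 17 genes were above 0 after correction for the GC content of transcripts, 13 without WT replicate 1 and 16 without Batf3-/- replicate 1, but 29 without WT replicate 2 and 30 without Batf3-/- replicate 2. The median was -0.01 with the GC correction and ran from -0.06 to 0.22 as each library was left out in turn.

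**Figure D2:**
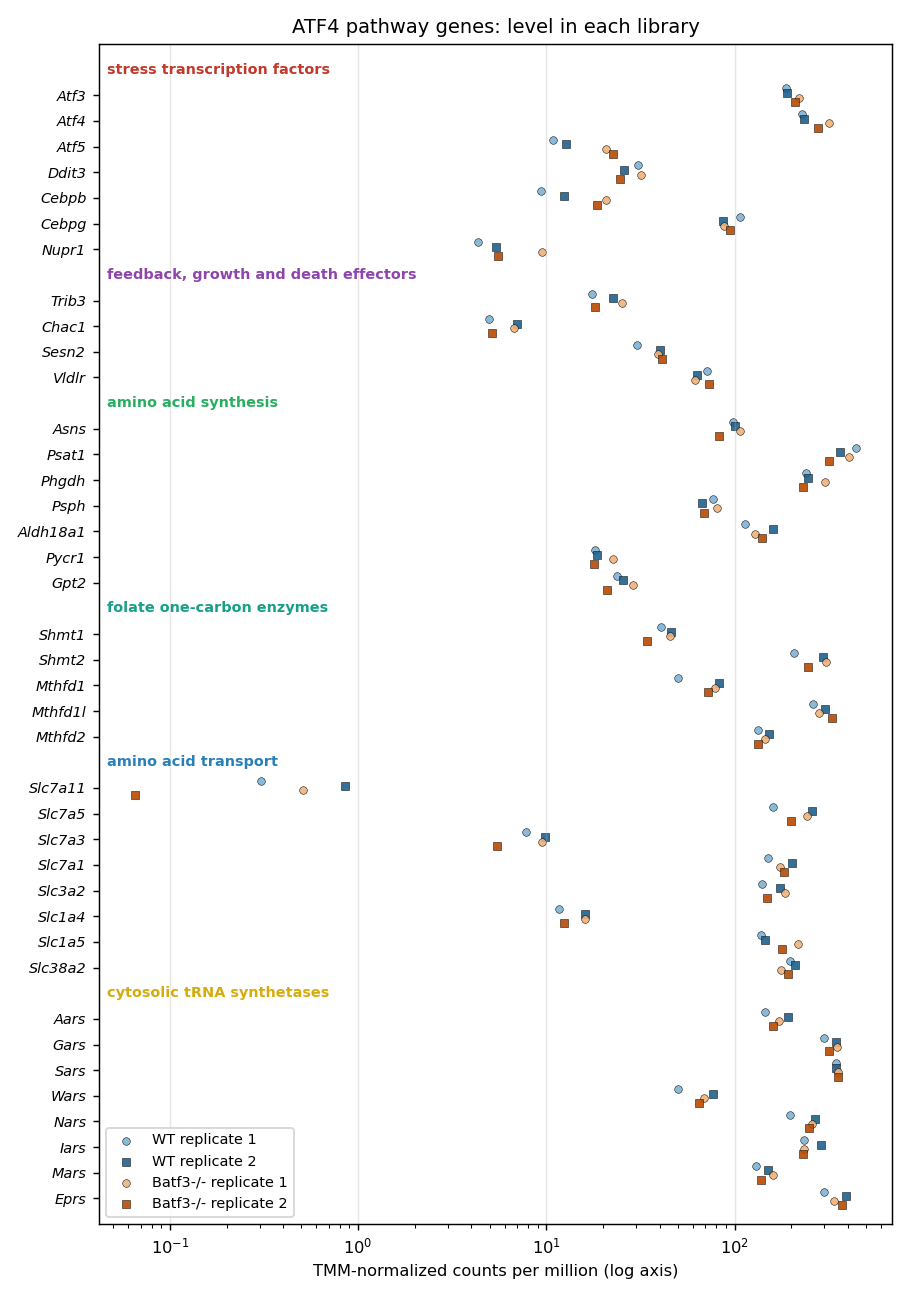
Level of each of the 39 genes in each library. The horizontal axis is TMM-normalized CPM on a log scale, circles are replicate 1 and squares replicate 2, blue is WT and orange Batf3-/-. The libraries of the 2 genotypes interleave for most genes, while the orange points of Atf5 and Cebpb lie to the right of the blue ones.

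**Figure D3:**
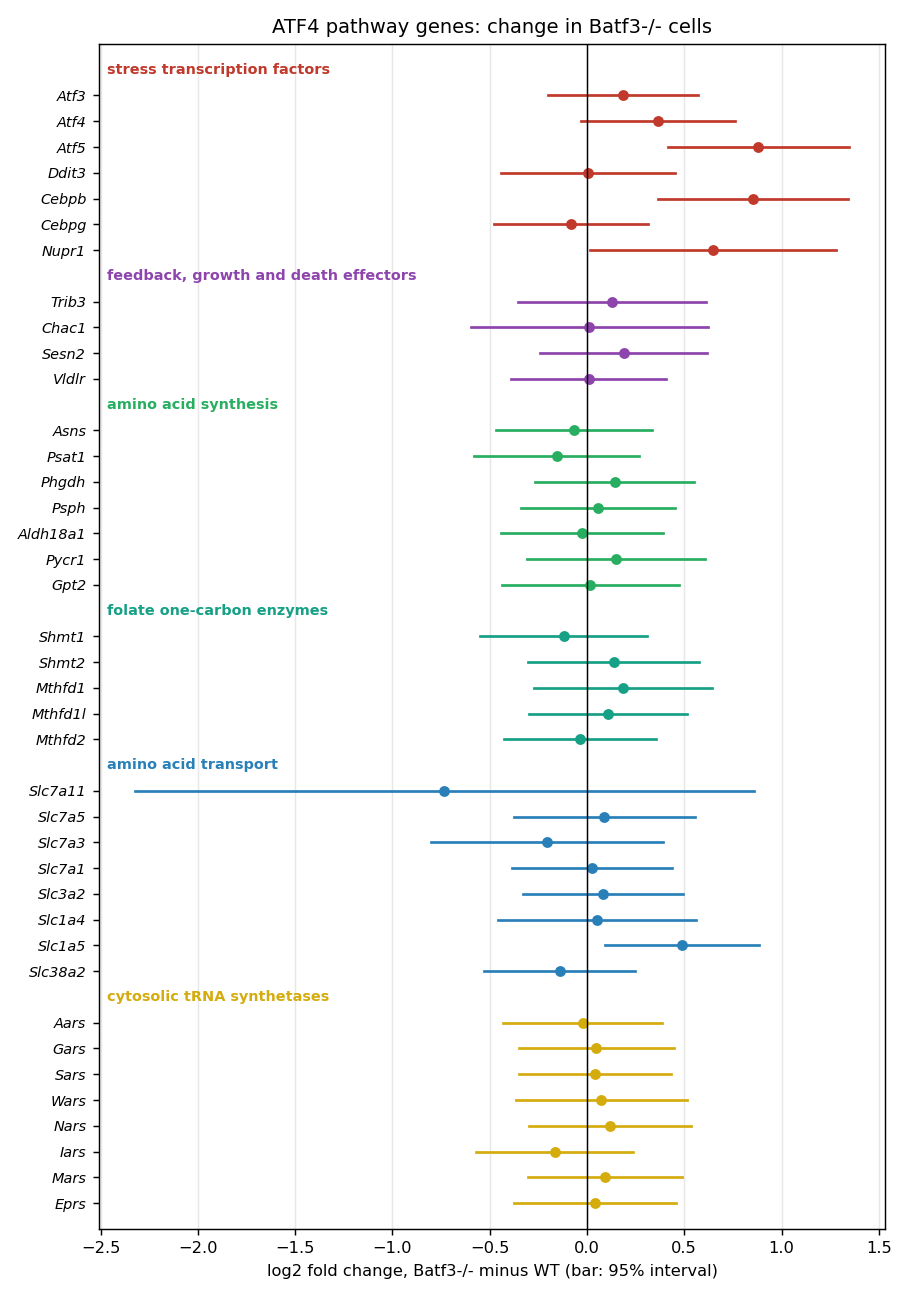
Fitted log2 fold change, Batf3-/- minus WT, for each gene, grouped by role. Points are edgeR estimates and bars are 95% intervals. The intervals of Atf5, Cebpb, Nupr1 and Slc1a5 exclude 0, and the interval of Slc7a11 is the widest, at a level of under 1 CPM.

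Among the transcription factors, the largest fitted differences were those of Atf5, Cebpb and Nupr1, followed by Atf4. Of 7 genes, 6 had a fitted value above 0 and 1 below, with a median log2 fold change of 0.37, and none passed the test. Atf4 (ENSMUSG00000042406.7, chr15:80255184-80257541) stood at 227 and 235 CPM in WT and at 318 and 277 CPM in Batf3-/-. The groups did not overlap, and the means were 231 ± 5.23 and 298 ± 29.2 CPM (SD, n = 2). The ratio of means was 1.29, and the log2 fold change was 0.37 (SE 0.189), with an edgeR adjusted p of 0.958. Its 95% interval ran from -0.03 to 0.76. With the GC correction the log2 fold change was 0.21, for a transcript with a GC content of 55.5%. Per kb of transcript, Atf4 was the most abundant of the 7, at 114 CPM per kb in WT and 147 in Batf3-/-, where it ranked 4 and 1 among all 39 genes.

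Atf5 (ENSMUSG00000038539.14, chr7:44812256-44816658) encodes a close relative of ATF4 that is likewise controlled through eIF2alpha. Its level was 10.8 and 12.7 CPM in WT and 20.8 and 22.6 CPM in Batf3-/-. Both Batf3-/- libraries were higher than either WT library, by a ratio of means of 1.85 (11.7 ± 1.30 and 21.7 ± 1.26 CPM, SD, n = 2). The log2 fold change was 0.88 (SE 0.223, 95% interval 0.41 to 1.35), with an unadjusted edgeR p of 0.000865 and an adjusted p of 0.263. Left without WT replicate 2, it passed the test, at 1.00 on the log2 scale and an adjusted p of 0.0112. It also passed when the replicate number entered the fit as a block (0.89, adjusted p 0.00767). In the block fit, for Atf5 as for Cebpb below, the spread came from the trend over all tested genes. It did not come from the gene's own libraries, which limits that pass. Over all alternatives the adjusted p ran from 0.00767 to 0.9998. The transcript of Atf5 has a GC content of 61.7%, where the median of tested genes is 49.8%, and correction of the libraries for GC content brought the log2 fold change to 0.49. The gene overlaps Il4i1 on the opposite strand by 272 bases. The deposited estimates of the 2 genes were fractional but summed to whole numbers in every library, within 0.02 (2552 and 3784 in WT, 4627 and 2086 in Batf3-/-), so reads were divided between them and the level of Atf5 is uncertain. Il4i1, the larger of the pair in counts, was at 98.6 and 125 CPM in WT and 125 and 112 CPM in Batf3-/-.

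Cebpb (ENSMUSG00000056501.3, chr2:167688915-167690418) encodes C/EBP beta, a partner with which ATF4 binds its composite element. Its level was 9.35 and 12.4 CPM in WT and 20.7 and 18.6 CPM in Batf3-/-. The groups did not overlap, at 10.9 ± 2.19 and 19.6 ± 1.53 CPM (SD, n = 2), a ratio of means of 1.80. The log2 fold change was 0.85 (SE 0.233, 95% interval 0.36 to 1.34), with an unadjusted edgeR p of 0.00172 and an adjusted p of 0.354. As with Atf5, the gene passed with the replicate block (0.86, adjusted p 0.0153). Without WT replicate 2, where WT replicate 1 was the only WT library, the log2 fold change was 1.08. Its transcript has a GC content of 67.2%, and with the GC correction the log2 fold change was 0.21, with an adjusted p of 0.9996. Over all alternatives the adjusted p ran from 0.00791 to 0.9998. It overlaps Tmem189 on the opposite strand by 908 bases and has fractional estimates, so its level is also uncertain. Unlike those of Atf5 and Il4i1, the summed estimates of Cebpb and Tmem189 were not whole in every library. They lay up to 0.41 from a whole number, so the sums do not show with which genes Cebpb shared reads.

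Nupr1 (ENSMUSG00000030717.9, chr7:126623249-126630861) encodes a small stress-induced chromatin protein. Its level was 4.33 and 5.43 CPM in WT and 9.44 and 5.56 CPM in Batf3-/-. The groups did not overlap, but Batf3-/- replicate 2 lay only 0.03 above WT replicate 2 on the log2 scale, where replicate 1 gave 1.12. The log2 fold change was 0.65 (SE 0.302, edgeR adjusted p 0.958), and it was 0.19 without Batf3-/- replicate 1. Atf3, another stress-induced leucine zipper factor, stood at 188 and 189 CPM in WT and at 220 and 209 CPM in Batf3-/-, a log2 fold change of 0.19 (SE 0.185). It lies 61.4 kb from Batf3 on chromosome 1, and flanking DNA at the targeted locus cannot be told apart from the genotype. Ddit3, which encodes the pro-apoptotic factor CHOP, had overlapping groups of 24.5 to 31.9 CPM and a log2 fold change of 0.00. Cebpg, the other C/EBP partner listed, also had overlapping groups, at 86.9 to 107 CPM and a log2 fold change of -0.08.

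The 4 genes that act in feedback, growth control and cell death had small fitted values, from 0.01 to 0.19 on the log2 scale, and none passed. Trib3, a pseudokinase that dampens ATF4 and CHOP, stood at 17.4 and 22.6 CPM in WT and at 25.3 and 18.1 CPM in Batf3-/-. The groups overlapped, and the log2 fold change was 0.13 (SE 0.231), or -0.11 with the GC correction. Sesn2, a leucine sensor that restrains mTORC1 and the most abundant of the 4 per kb of transcript, stood at 30.5 and 39.9 CPM in WT and at 39.2 and 41.1 CPM in Batf3-/-. Here WT replicate 1 was low and the other 3 libraries were alike, and the log2 fold change was 0.19 (SE 0.205), or -0.07 with the GC correction. Chac1, a glutathione-degrading enzyme, was near the low end at 4.97 to 6.96 CPM, and the lipoprotein receptor gene Vldlr was at 61.4 to 73.4 CPM. Both had a log2 fold change of 0.01.

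Genes for amino acid synthesis were expressed in each library, and none differed between genotypes by the test. Of the 7, 4 had a fitted value above 0 and 3 below, with a median of 0.02. Asns (ENSMUSG00000029752.12, chr6:7675169-7693254) encodes asparagine synthetase, the classical amino acid response gene, whose promoter match is printed with the others. It stood at 98.6 and 100 CPM in WT and at 107 and 83.0 CPM in Batf3-/-. The Batf3-/- libraries lay on both sides of the WT pair, and the log2 fold change was -0.07 (SE 0.191, 95% interval -0.47 to 0.33, edgeR adjusted p 0.978).

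Psat1, the aminotransferase of serine synthesis, was the most abundant of the 39 genes per kb of transcript in WT, at 154 CPM per kb, and ranked 4 in Batf3-/-, at 138 CPM per kb. Its libraries overlapped, at 444 and 364 CPM in WT and 407 and 317 CPM in Batf3-/-, with a log2 fold change of -0.16 (SE 0.202). Phgdh, the first enzyme of the same pathway, ranked 3 per kb in WT and 2 in Batf3-/-, and its log2 fold change was 0.14. Psph, which completes the pathway, was at 66.9 to 80.8 CPM with a log2 fold change of 0.06, so the serine synthesis enzymes had values on both sides of 0. Pycr1, a mitochondrial proline synthesis enzyme, stood at 18.2 and 18.5 CPM in WT and at 22.6 and 17.98 CPM in Batf3-/-. The WT libraries were within the range of the Batf3-/- pair, and the log2 fold change was 0.15 (SE 0.218). Aldh18a1, which feeds the proline pathway, and Gpt2, the mitochondrial alanine transaminase, had log2 fold changes of -0.02 and 0.02.

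In folate one-carbon metabolism, 3 of 5 genes had a fitted value above 0 and 2 below, with a median of 0.11 and none past the test. Shmt2, the mitochondrial enzyme that takes a one-carbon unit from serine, was the most abundant of the 5 per kb, at 109 CPM per kb in WT and 120 in Batf3-/-. Its level was 206 and 294 CPM in WT and 305 and 246 CPM in Batf3-/-, overlapping groups with a log2 fold change of 0.14 (SE 0.210). With the GC correction it was -0.07. Mthfd1, the cytosolic trifunctional enzyme, stood at 50.3 and 82.3 CPM in WT and at 78.8 and 71.9 CPM in Batf3-/-. WT replicate 1 was the lowest library and WT replicate 2 the highest, and the log2 fold change was 0.18 (SE 0.218). The mitochondrial enzymes Mthfd1l and Mthfd2 had values of 0.11 and -0.04, and cytosolic Shmt1 -0.12. Shmt1 overlaps Smcr8 on the opposite strand by 184 bases, their summed estimates were whole in every library within 0.02, and its level is uncertain for that reason.

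Amino acid transporters included the fourth gene with an unadjusted p under 0.05. Slc1a5 (ENSMUSG00000001918.17, chr7:16781340-16798274) encodes ASCT2, the main sodium-dependent importer of glutamine in activated T cells. It stood at 138 and 145 CPM in WT and at 218 and 178 CPM in Batf3-/-. The groups did not overlap, at 141 ± 5.18 and 198 ± 28.1 CPM (SD, n = 2), a ratio of means of 1.40. The log2 fold change was 0.49 (SE 0.190, 95% interval 0.09 to 0.89), with an unadjusted edgeR p of 0.0188 and an adjusted p of 0.872. With the GC correction it was 0.29, for a transcript with a GC content of 56.7%.

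The other 7 transporters were divided, 4 with a fitted value above 0 and 3 below. Slc7a5, the light chain of the large neutral amino acid transporter LAT1, stood at 159 and 256 CPM in WT and at 242 and 200 CPM in Batf3-/-. The WT libraries enclosed the Batf3-/- pair, and the log2 fold change was 0.09 (SE 0.221), or -0.08 with the GC correction. Its partner Slc3a2, the heavy chain CD98, had overlapping groups, at 140 and 175 CPM in WT and 185 and 148 CPM in Batf3-/-, with a log2 fold change of 0.08. Per kb of transcript, Slc7a5 was the most abundant transporter in WT, at 59.1 CPM per kb with Slc1a5 at 50.4, while in Batf3-/- Slc1a5 was at 70.6 and Slc7a5 at 62.9. Slc7a3, a cationic amino acid transporter, stood at 7.76 and 9.84 CPM in WT and at 9.44 and 5.50 CPM in Batf3-/-. Batf3-/- replicate 2 was the lowest, and the log2 fold change was -0.21 (SE 0.285). Slc7a1, the main arginine importer, and Slc1a4, a neutral amino acid exchanger, had values of 0.03 and 0.05.

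Slc38a2, the SNAT2 transporter that amino acid shortage induces in many cells, was the single gene with both Batf3-/- libraries below WT. It stood at 197 and 209 CPM in WT and at 177 and 192 CPM in Batf3-/-, with a log2 fold change of -0.14 (SE 0.185). Slc7a11, the cystine importer of system xc-, was the least abundant of the 39, with estimated counts of 7.08 and 23.29 in WT and 16.18 and 1.01 in Batf3-/-. Its log2 fold change of -0.73 (SE 0.760) had the widest interval of the 39, and its promoter held a pair of core matches.

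None of the genes for the 8 cytosolic synthetases, which charge tRNAs with their amino acids, passed the test. Fitted log2 fold changes ran from -0.17 to 0.12, with 6 above 0 and 2 below. Gars, the glycyl-tRNA synthetase, was the most abundant per kb of transcript, at 135 CPM per kb in WT and 140 in Batf3-/-. Its level was 298 and 344 CPM in WT and 348 and 316 CPM in Batf3-/-, overlapping groups with a log2 fold change of 0.05 (SE 0.191). Iars, the isoleucyl enzyme, stood at 234 and 289 CPM in WT and at 234 and 231 CPM in Batf3-/-. The groups overlapped, WT replicate 2 was the high library, and the log2 fold change was -0.17 (SE 0.192). Nars, the asparaginyl enzyme, stood at 198 and 268 CPM in WT and at 257 and 248 CPM in Batf3-/-, where WT replicate 1 was the low library, and its log2 fold change was 0.12 (SE 0.199).

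The seryl enzyme gene Sars had a log2 fold change of 0.04 from groups of 344 and 346 CPM in WT and 353 and 356 CPM in Batf3-/- that did not overlap but differed by a ratio of means of 1.03. Eprs, the glutamyl-prolyl enzyme, lies on the chromosome of Batf3 at a distance of 5669 kb, and its groups overlapped at 300 and 388 CPM in WT and 337 and 371 CPM in Batf3-/-. Aars, Wars and Mars, for alanine, tryptophan and methionine, had log2 fold changes of -0.02, 0.07 and 0.09. Mars and Ddit3 overlap at their ends on opposite strands by 68 bases, and both had whole estimates in every library.

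Most of the 39 genes had opposite differences between genotypes in the 2 replicates. Within replicate 1, 35 of the 39 genes (89.7%) were higher in Batf3-/- than in WT, with a median log2 ratio of 0.28, where 48.7% of all tested genes were higher. Within replicate 2, 12 (30.8%) were higher and 27 lower, with a median of -0.13, where 50.4% of all tested genes were higher. The combination of higher in replicate 1 and lower in replicate 2 was found in 25 of the 39 (64.1%), compared with 21.5% of all tested genes. Of the rest, 10 were higher in both, 2 lower in both and 2 the other way round. Within a genotype, WT replicate 2 was above WT replicate 1 in 34 genes (87.2%; all tested genes 50.7%), and Batf3-/- replicate 2 was below Batf3-/- replicate 1 in 29 (74.4%; all tested genes 50.9%). These are shares over genes within single libraries, and genes are not replicates.

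All 8 transporters, all 8 synthetases and all 5 folate enzymes were higher in WT replicate 2 than in WT replicate 1. In replicate 1 the 8 synthetases were all higher in Batf3-/-, with a median log2 ratio of 0.24, and in replicate 2 7 of the 8 were lower, with a median of -0.12. For the transporters the medians were 0.43 and -0.30, and for the folate enzymes 0.16 and -0.20. For the transcription factors they were 0.49 and 0.14, both above 0, and 5 of the 7 (71.4%) were higher in both replicates, compared with 27.1% of all tested genes. The same medians were taken over genes of related roles outside the 39. The 15 other cytosolic synthetase and scaffold genes had medians of 0.18 and -0.09. For the 18 tested other targets of ATF4 and CHOP the medians were 0.20 and 0.07, both above 0. They were 0.23 and 0.08 for the 17 mitochondrial synthetases and 0.20 and 0.05 for the 16 other amino acid enzymes. The 11 eIF2alpha kinase and phosphatase genes gave -0.07 and -0.12, and the 13 genes of amino acid sensing by mTORC1 gave -0.04 and 0.001. The 12 other transporters had medians of 0.07 and 0.01, and the 15 other serine, one-carbon and methionine genes had medians of -0.0049 and -0.0079, with WT replicate 2 above WT replicate 1 in 6. WT replicate 1, the library that stood apart in the correlations, was the lowest of the 4 in 24 of the 39 genes (61.5%; all tested genes 32.5%). Its part in these shares, and that of the replicate difference in Xist, was not tested.

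**Figure D4:**
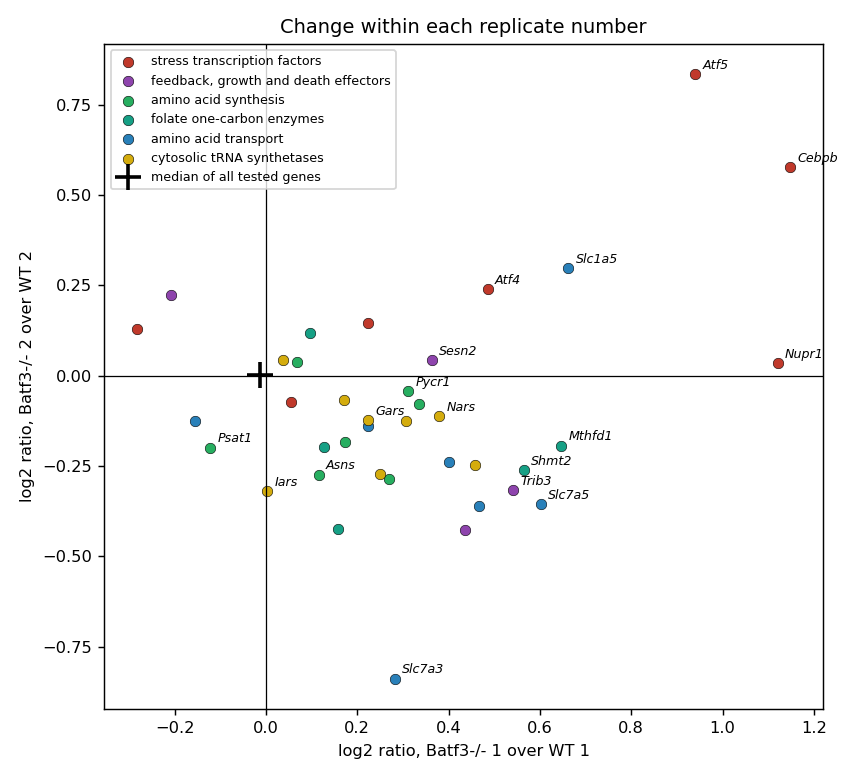
Log2 ratio of Batf3-/- over WT within replicate 2 (vertical) against the same within replicate 1 (horizontal), for 38 of the 39 genes, coloured by role. Slc7a11, at under 1 CPM, is not drawn, and the cross marks the medians of all tested genes. Most points lie at the lower right, higher in replicate 1 and lower in replicate 2, while Atf4, Atf5, Cebpb and Slc1a5 lie in the upper right.

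Other genes of the pathway were taken from 8 further lists with 123 genes, of which 117 were tested and 0 passed in edgeR, with 6 (5.13%) at an unadjusted p under 0.05, all higher in Batf3-/-, where 3.4% of all tested genes were higher and 1.4% lower at that p. Of 11 genes for the eIF2alpha kinases, phosphatases and their regulators, which control ATF4 translation, 4 had a fitted value above 0 and 7 below, with a median of -0.06. Their smallest unadjusted p-values belonged to the PERK inhibitor Dnajc3 (-0.18) and the kinase gene Eif2ak2 (-0.21). Of 18 tested targets of ATF4 and CHOP outside the 39, 10 were above 0 and 8 below, with a median of 0.13. Ddit4, which encodes the mTORC1 inhibitor REDD1, stood at 349 and 345 CPM in WT and at 471 and 568 CPM in Batf3-/-. These groups did not overlap, and the log2 fold change was 0.58 (SE 0.194, edgeR adjusted p 0.708). Soat2, a sterol acyltransferase, had a value of 0.80 at 5.43 to 12.3 CPM.

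None of the remaining tRNA synthetases passed. The 15 other cytosolic synthetase and scaffold genes had a median of 0.01, with 8 above 0 and 7 below, and values of 0.34 for Vars and -0.31 for Dars. The 17 mitochondrial synthetases had 11 above 0 and 6 below, with a median of 0.13. Aars2, the mitochondrial alanyl enzyme, stood at 11.2 and 14.4 CPM in WT and 20.9 and 20.4 CPM in Batf3-/-, without overlap, with a log2 fold change of 0.69 (edgeR adjusted p 0.701).

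Around amino acid metabolism, the medians were 0.03 over 15 other serine, one-carbon and methionine genes (8 above 0, 7 below), 0.08 over 16 other amino acid enzymes (10 above, 6 below), 0.12 over 12 other transporters (8 above, 4 below) and -0.02 over 13 genes of amino acid sensing by mTORC1 (6 above, 7 below). By the same choice of the smallest unadjusted p-values, these lists gave -0.87 for Aldh1l1 and 0.30 for Ahcy, 0.52 for Gpt, 0.53 for the mitochondrial glutamate carrier Slc25a22 and -0.72 for Slc7a7, and 0.37 for Akt1s1 and 0.31 for Gatsl3. None of these passed, and Slc7a7 lay under 1 CPM in all libraries.

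**Figure D5:**
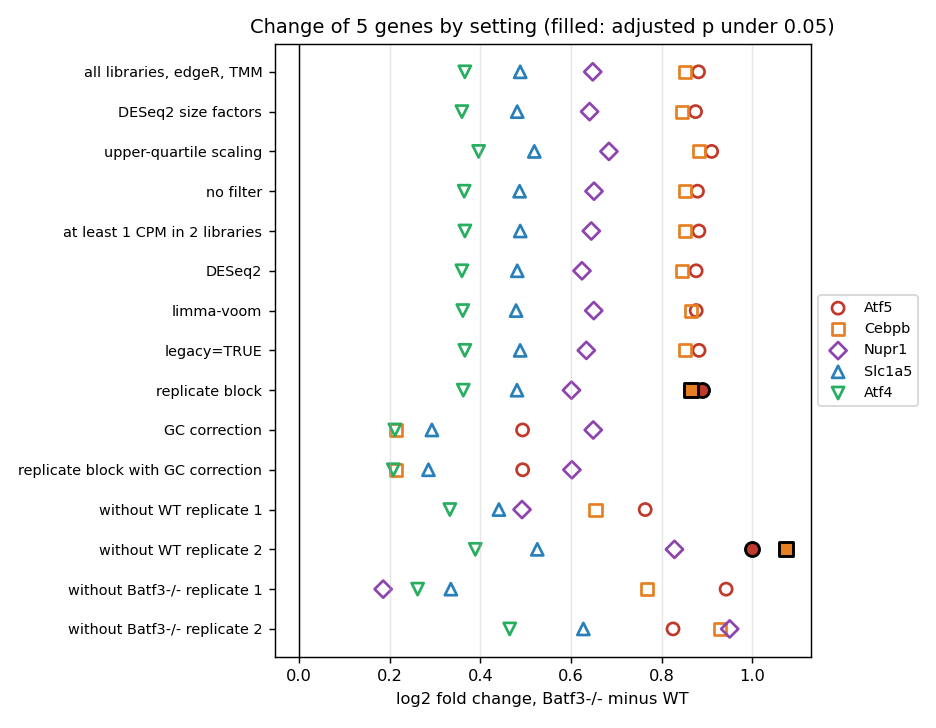
Log2 fold change, Batf3-/- minus WT, of 5 genes under the reported fit (top) and 14 alternatives. Filled symbols have an adjusted p under 0.05. All 5 genes stay above 0 in every setting, and Atf5 and Cebpb are filled with the replicate block and without WT replicate 2. The GC correction moves Atf4, Atf5, Cebpb and Slc1a5 toward 0.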

How the data were processed

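Poly-A RNA was sequenced single-end from stranded libraries, per the labels' protocols. The deposited values are RSEM expected counts per gene, which divide reads shared between genes. STAR 2.5.0, RSEM 1.2.25 and build GRCm38 come from the submitters' processing notes. Which annotation was used, and whether reads were counted by strand, is not given in the sources used here. The 92 spike-in entries, all 0, were left out.

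Expected counts were rounded and fitted in R 4.3.3 with edgeR 4.0.16: filterByExpr (minimum count 10, minimum total 15), TMM normalization, robust quasi-likelihood with genotype as the only term, two-sided, Benjamini-Hochberg over all 12135 tested genes at 0.05. An exact permutation test of 2 against 2 libraries cannot go below p = 0.333. Printed levels are TMM-normalized CPM; ratios within a replicate number are differences of log2 CPM (prior count 0.5); levels are compared between genes only as CPM per kb of the longest transcript. At these depths 3 counts, the limit for a gene at 0, equal 0.0965 to 0.192 CPM, counting error only. Gene positions and transcript GC content come from the mouse GRCm38 annotation. The model was tested on simulated data that held no replicate, sex or GC effect, so that test does not bear on such effects here.

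The genes and lists were chosen with earlier results of these data known. All 39 genes are accounted for. Values in each library were due for genes with an unadjusted p under 0.05, Atf4, Asns, and in each role group the most abundant gene per kb and the 2 largest changes at 1 CPM or more; at most 2 genes per further list were named by p. A few genes beyond this rule (Atf3, Slc3a2, Slc38a2, Sars, Eprs, Slc7a11) were given after their values were seen. The TGANTCA search and the listing of Lars2 were also added after seeing the data. Alternatives were DESeq2 1.42.0 and its size factors, upper-quartile scaling, 2 other filters, limma-voom (limma 3.58.1), the older edgeR dispersion method, a replicate block, a GC correction (smooth trend with 5 degrees of freedom) alone and with the block, and each library left out. Some items are not reported here.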

Additional observations from a re-analysis of the deposited data

How the results depend on the processing

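The count of the 39 genes passing the test was 0 in 12 of 14 alternatives. It was 2 (Atf5 and Cebpb) with the replicate block, where 112 genes passed in all compared with 16 in the reported fit, and 2 without WT replicate 2, where 553 passed in all, so leaving out 1 library gave 0 to 2. Over all genes, DESeq2 called 29, and the fit without WT replicate 1 called 62. It was 38 without Batf3-/- replicate 2, and 85 for the replicate block with GC correction. The sample titles share a code between the genotypes within each replicate number, but the labels do not say what it marks. The reported fit did not pair the libraries. Over the tested genes, the difference between replicates in WT had a correlation of 0.105 with that in Batf3-/-, from only 2 pairs of libraries. Xist was higher in replicate 2 in both genotypes, by 9.46 in WT and 10.3 in Batf3-/- on the log2 scale. The lone library of a genotype was assumed to vary like the other genotype. Signs turned with the GC correction for Trib3 (-0.11), Sesn2 (-0.070), Shmt2 (-0.068) and Slc7a5 (-0.075), and with the replicate block and GC correction together for Trib3 (-0.13), Sesn2 (-0.066), Shmt2 (-0.067) and Slc7a5 (-0.057). Log2 fold changes as each library was left out ran from -0.14 to 0.34 for Trib3, -0.0019 to 0.40 for Sesn2, -0.11 to 0.42 for Shmt2, -0.14 to 0.58 for Mthfd1, -0.22 to 0.47 for Slc7a5, -0.063 to 0.16 for Gars, -0.094 to 0.35 for Nars, -0.030 to 0.30 for Pycr1, -0.26 to 0.11 for Asns, -0.35 to 0.017 for Psat1 and -0.68 to 0.10 for Slc7a3. Of the 17 genes given library by library under the naming rule, 6 (Atf4, Atf5, Cebpb, Iars, Nupr1 and Slc1a5) kept their sign in all 14 alternatives. The cause of these changes was not tested. With 2 libraries per genotype, the 95% interval of Asns, -0.47 to 0.33, shows the size of change these data could not exclude.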

Other observations

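Lars2, the mitochondrial leucyl-tRNA synthetase, had the most uneven levels noted among the synthetases, at 50.1 and 154 CPM in WT and 265 and 87.7 CPM in Batf3-/-. The libraries of the 2 genotypes overlapped, from WT replicate 1 at the low end to Batf3-/- replicate 1 at the high end. This gene was singled out after its values were seen.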
